A study of Mus musculus with 12 samples.

Results

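The genes that write, maintain and erase DNA methylation were followed across mouse fibroblast reprogramming in 12 RNA-seq libraries. The set holds 9 genes picked by name for their function and not by their values: the maintenance pair Dnmt1 and Uhrf1, the de novo genes Dnmt3a, Dnmt3b and Dnmt3l, the erasers Tet1, Tet2 and Tet3, and the glycosylase gene Tdg. All 9 were found among the 40384 genes of the table. A gene was tested where its FPKM, fragments scaled by gene length and library depth, reached 1 in 3 or more of the 12 libraries, which 17114 genes and all 9 members met. Dnmt3b, Dnmt3l and Tet1 met it through the iPSC libraries alone, so that iPSC had to stand above the other groups for these 3 genes.

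The study compared 4 groups of 3 libraries to ask how overexpressed DUX, a factor of the early embryo, acts in the first days of reprogramming. The MEF group was embryonic fibroblasts of male homozygous 4F2A embryos at mid-gestation. The 4F2A strain is known for a doxycycline-inducible cassette of Pou5f1, Sox2, Klf4 and Myc. The D4 group was the same cells on day 4 under OE-NC, the control treatment. The D4_DUX group was at day 4 under the treatment OE-DUX, in which DUX was overexpressed during 48 h. The iPSC group is labelled as induced pluripotent stem cells, with no day or passage. The growth text, which every sample carries, gives LIF and doxycycline at 2 μg/mL, and does not say whether the MEF libraries were collected before doxycycline. The labels do not say whether the 3 libraries of a group were separate cultures, so p-values may measure technical spread only. They also do not say that day 4 cells were sorted, so each library is read as a whole culture.

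In mammals DNA methylation sits mostly on the cytosine of CpG. DNMT3A and DNMT3B set it on unmethylated DNA, helped by DNMT3L, which has no catalytic activity of its own. UHRF1 brings DNMT1 to hemimethylated sites behind the replication fork, and TET enzymes oxidize the methyl group so that it is lost at replication or cut out by TDG and base excision repair. Pluripotent mouse cells are known for Dnmt3b, Dnmt3l, Tet1 and Tet2, and TET activity is known to aid reprogramming.

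Depth was 22450000 to 28040000 fragments per library, recovered from the steps of the low values, with a Pearson r of 0.9936 to 0.9966 between libraries of the same group. Dux itself (Duxf3) was listed at 0 FPKM in all 3 D4_DUX libraries and at no more than 0.0247 elsewhere, under the level of 3 fragments, so the table holds no check of the DUX label. The D4_DUX group is therefore named by its label throughout, also wherever a direction is given. The summed FPKM of 12 fibroblast markers was 6224 to 6360 in MEF, 3483 to 3605 in D4, 2732 to 2802 in D4_DUX and 802 to 1053 in iPSC. The 12 pluripotent cell markers summed to 0.317 to 0.505, 1.75 to 1.92, 1.74 to 2.01 and 1436 to 1594 in the same order, with Nr0b1, Fgf4 and Lin28a at 0 in MEF. So the iPSC label matched these markers, and day 4 cultures held very little of them. Col1a1 led the fibroblast sum, at a mean of 3047 FPKM in MEF. From MEF to D4 8 fibroblast markers fell and 4 rose (Thy1, Twist1, Prrx1 and Dcn), where 61.8% of all genes were called. From MEF to iPSC 11 fell and 1, Dcn, rose (mean 186 to 211 FPKM), where 82.2% of all genes were called. The iPSC libraries thus held fibroblast marker RNA as well, and its source was not tested. The MEF cultures also held macrophage RNA: 16 macrophage markers summed to 1643 to 1689 FPKM in MEF, 196 to 234 in D4, 50.5 to 52.5 in D4_DUX and 180 to 221 in iPSC, with none at 0 in any group. Of these 16 markers 0 rose and 16 fell from MEF to D4, where 61.8% of all genes were called in either direction. From D4 to D4_DUX 0 rose and 15 fell, where 35.4% were called. The 12 epithelial markers summed to 6.24 to 6.63, 14.4 to 15.4, 31.3 to 33.5 and 178 to 195. These markers moved with the groups, and their part in the members' values was not tested. In whole cultures, fewer cells of a type and less RNA per cell cannot be told apart.

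From MEF to day 4, 6 of the 9 members fell and 0 rose, while 61.8% of all genes tested were called in either direction. The members' median log2 fold change was -0.34, against 0.03 over all genes. Mean FPKM in D4 was 43.7% of MEF for Tdg, 51.8% for Uhrf1 and 54.7% for Dnmt1, and among the genes under 1 FPKM it was 15.8% for Dnmt3l and 51.0% for Tet1. From MEF to iPSC all 9 members were called, 8 higher and Tet3 lower, where 82.2% of all genes were called. Among the 8, Dnmt3b, Dnmt3l and Tet1 passed the filter only through iPSC, so their direction was fixed in advance. The members' median, with these genes included, was 1.93 against 0.21 over all genes. The same 8 and 1 were called for iPSC against D4 (82.4% of all genes) and for iPSC against D4_DUX (82.5%). These comparisons share the iPSC libraries and the same limit. Between D4_DUX and D4 only Tet3 was called, where 35.4% of all genes were. D4_DUX against MEF called 5 members lower and 0 higher, where 65.8% of all genes were called.

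**Figure D1:**
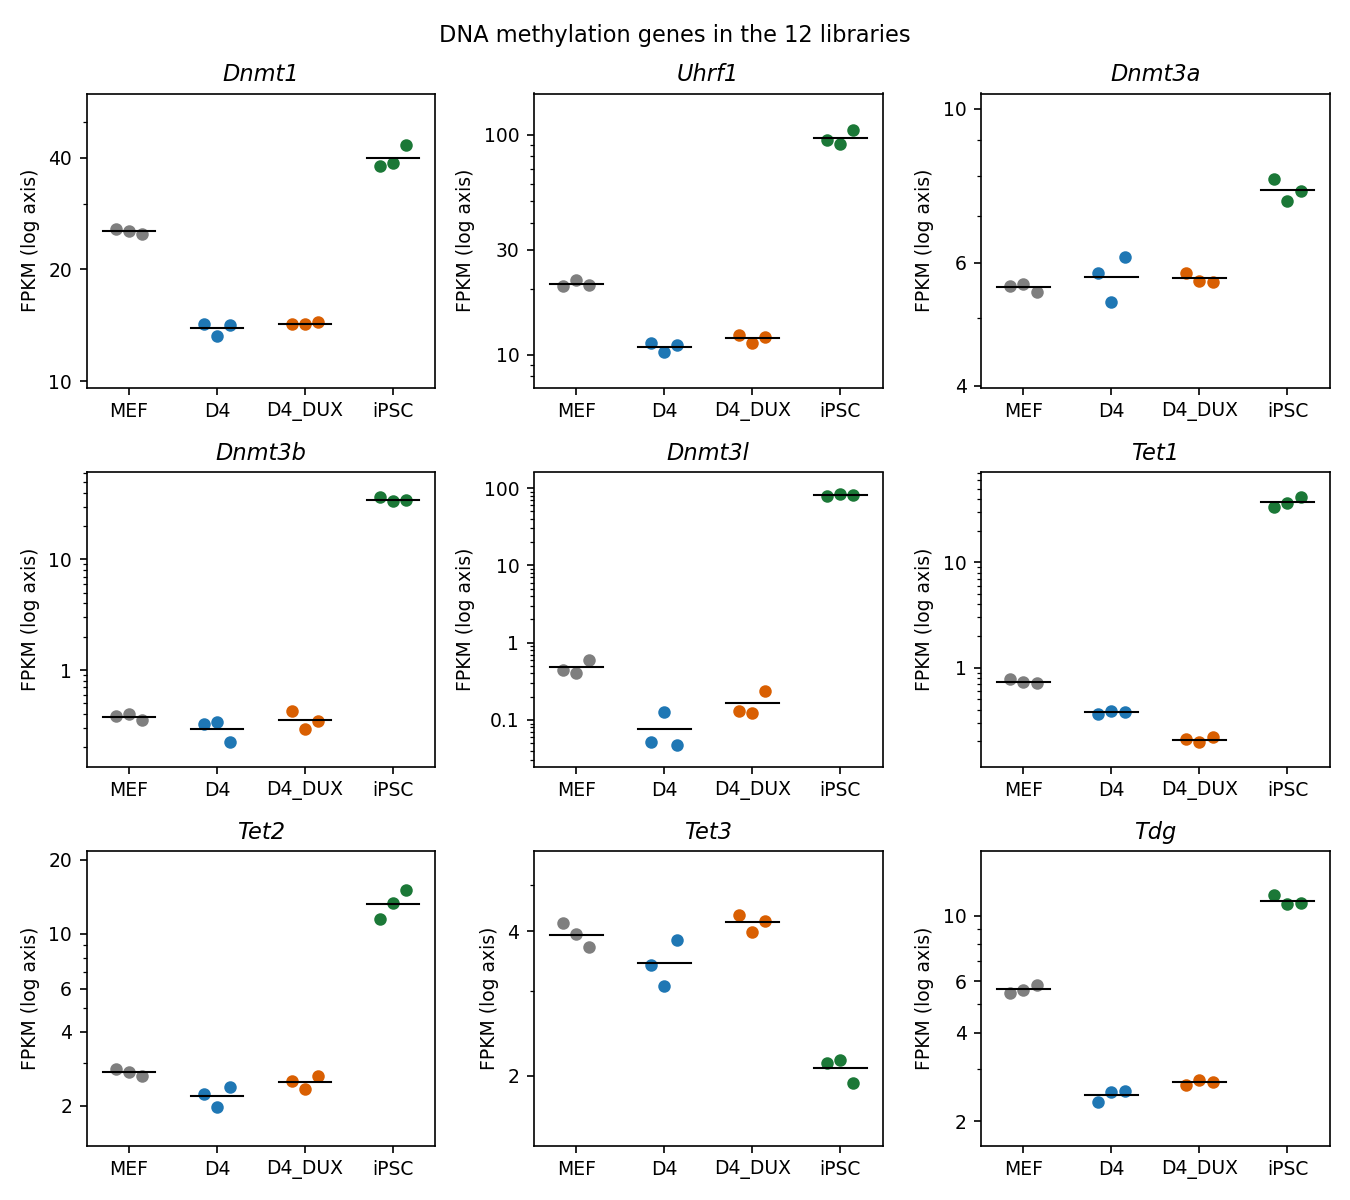
FPKM of each of the 9 genes in every library, on a log axis, with 1 point per library and a bar at the mean of the 3 libraries of a group. Dnmt3b, Dnmt3l and Tet1 are under 1 FPKM outside iPSC, and Tet3 alone is lowest in iPSC.

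The promoter stretches of 4 members are printed: those whose messages rose most from MEF to iPSC (Dnmt3l, Dnmt3b, Tet1) and Uhrf1, the only member with E2F letters in such a stretch. They come from RefSeq windows of build GRCm38.p6, which run from 250 bases before to 50 after an annotated start, and cover the bases before the start that lie outside annotated exons. Further windows of Dnmt3l and Uhrf1, and stretches of other members that hold E-box or CCAAT letters, are not printed. The Dnmt3l stretch is from the first of its 3 windows. A table by gene does not tell which start a group used, so a printed stretch need not be the one behind a rise. Sequences read along the gene's strand, and capitals mark each CpG, the site that these enzymes act on.
Dnmt3l, chr10:78042136-78042286, plus strand: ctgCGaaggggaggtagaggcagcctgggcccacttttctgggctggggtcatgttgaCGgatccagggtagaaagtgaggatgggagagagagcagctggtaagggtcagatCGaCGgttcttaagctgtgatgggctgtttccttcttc
Dnmt3b, chr2:153649249-153649448, plus strand: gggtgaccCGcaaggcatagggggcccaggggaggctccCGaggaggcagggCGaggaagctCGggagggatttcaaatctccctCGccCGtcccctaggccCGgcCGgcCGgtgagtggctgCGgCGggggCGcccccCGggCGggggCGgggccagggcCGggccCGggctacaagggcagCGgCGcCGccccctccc
Tet1, chr10:62887325-62887412, minus strand: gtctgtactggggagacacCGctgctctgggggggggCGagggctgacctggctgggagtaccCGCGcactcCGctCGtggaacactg
Uhrf1, chr17:56304113-56304312, plus strand: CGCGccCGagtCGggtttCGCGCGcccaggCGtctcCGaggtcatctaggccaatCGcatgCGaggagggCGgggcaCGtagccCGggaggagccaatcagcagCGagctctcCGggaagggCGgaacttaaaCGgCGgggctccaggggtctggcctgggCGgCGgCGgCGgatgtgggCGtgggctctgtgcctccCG
The stretches of Dnmt3b and Uhrf1 are dense in CpG and that of Dnmt3l is sparse. Over the whole 300-base window Dnmt3b held 30 CpG, Tet1 17, and the 3 Dnmt3l windows 6, 4 and 3. The Uhrf1 windows held 12 and 33, with 33 in the window of the printed stretch. The 32851 windows of all genes had a median of 7 CpG, with quartiles at 3 and 20. Of the other members, Tet2 held 57, more than 99.8% of all windows, Tet3 held 22, Tdg 26, the 3 Dnmt3a windows 46, 47 and 18, and the 3 Dnmt1 windows 2, 12 and 33. So the windows of the 3 genes that were under 1 FPKM before iPSC did not share a CpG density: they ran from 3 to 30. The Tet1 and Tet3 windows lie at starts inside the annotated genes (62887324 and 83441678, both minus strand). The outer ends of these genes, at 62908996 and 83459084, have no window. No window reaches the outer start of Dnmt3a (3806007), Dnmt3l (78041947) or Tet2 (133545139, minus strand) either. The CpG density at all these ends is not described. The printed Uhrf1 stretch precedes a start at 56304313, inside the gene, which begins at 56303321.

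Letters of an E2F site (TTTCCCGC, TTTGGCGC or TTTCGCGC, either strand) were in 2 of the 16 member windows, of Dnmt1 and Uhrf1, against 1.84% of all windows. In Uhrf1 the match starts 185 bases before the start, within the printed stretch. The octamer ATGCAAAT was in 0 of the 16 windows (1.74% of all). The E-box CACGTG was in 3, of Dnmt3a, Dnmt3l and Tdg (7.15%), the Klf letters GGGTGTGG in 1, of Dnmt3l (3.56%), and CCAAT in 6 (37.41%). These matches describe letters in the windows, not bound sites.

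Dnmt1, the maintenance methyltransferase (ENSMUSG00000004099, GRCm38 chromosome 9, 20907209 to 20959888, minus strand), was present in every group. Its FPKM was 25.8, 25.4 and 24.9 in MEF, 14.3, 13.2 and 14.1 in D4, 14.3, 14.2 and 14.4 in D4_DUX, and 37.9, 38.7 and 43.2 in iPSC. The day 4 groups lay under every MEF library, and iPSC above all others. From MEF to D4 it fell by 0.83 on the log2(FPKM + 1) scale (SE 0.05, n = 3 and 3, limma adjusted p = 3.11e-08), a drop from a mean of 25.4 ± 0.409 (SD, n = 3) to 13.9 ± 0.555. From D4 to iPSC the log2 fold change was 1.46 (SE 0.05, adjusted p = 5.63e-11), to 39.9 ± 2.86 FPKM. The net difference of iPSC from MEF was 0.63 (adjusted p = 1.05e-07), a ratio of 1.57. This log2 difference was 0.41 after median-ratio scaling and after quantile normalization. D4 and D4_DUX overlapped and differed by 0.04, with a 95% interval of -0.06 to 0.14.

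Uhrf1, the reader that brings DNMT1 to hemimethylated CpG (ENSMUSG00000001228, chromosome 17, 56303321 to 56323486, plus strand), followed the same order with a larger span. Its FPKM was 20.6, 21.9 and 20.8 in MEF, 11.3, 10.4 and 11.1 in D4, 12.3, 11.4 and 12.04 in D4_DUX, and 95.2, 91.2 and 106 in iPSC. Every day 4 library lay under the MEF libraries. From MEF to D4 it fell by 0.89 (SE 0.05, adjusted p = 6.67e-08), and from D4 to iPSC it rose by 3.04 (SE 0.05, adjusted p = 5.17e-13). The ratio of Uhrf1 to Dnmt1 FPKM was 0.832 ± 0.031 in MEF, 0.786 ± 0.00463 in D4, 0.832 ± 0.0316 in D4_DUX and 2.44 ± 0.0768 in iPSC (SD, n = 3 each). The 3 values in D4_DUX (0.862, 0.799 and 0.835) all lay above the 3 in D4 (0.791, 0.782 and 0.785). This ratio was not tested.

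Dnmt3a, the de novo enzyme of many somatic tissues (ENSMUSG00000020661, chromosome 12, 3806007 to 3914443, plus strand), moved least. Its FPKM was 5.56, 5.60 and 5.46 in MEF, 5.80, 5.27 and 6.12 in D4, 5.80, 5.66 and 5.64 in D4_DUX, and 7.92, 7.36 and 7.61 in iPSC. The 3 groups before iPSC differed by no more than 0.04 on the log2 scale, with adjusted p of 0.516 to 0.973. The sign turned with the scaling for D4 against MEF (-0.02 with median-ratio scaling or quantile normalization) and for D4_DUX against MEF (-0.05), so no direction is given. iPSC exceeded MEF by 0.40 (SE 0.05, adjusted p = 9.12e-06) and D4 by 0.36 (adjusted p = 2.23e-05). With quantile normalization these became 0.13 (adjusted p = 0.0186) and 0.15 (adjusted p = 0.00847). The gene has RefSeq starts at 3806980, 3807160 and 3891744, and a table by gene does not tell its isoforms apart.

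Dnmt3b, the de novo enzyme of the early embryo (ENSMUSG00000027478, chromosome 2, 153649450 to 153687730, plus strand), was close to absent until iPSC. Its FPKM was 0.387, 0.400 and 0.350 in MEF, 0.324, 0.339 and 0.224 in D4, 0.422, 0.292 and 0.348 in D4_DUX, and 36.4, 33.4 and 34.2 in iPSC. The values before iPSC rest on 28.5 to 57.2 fragments per library. iPSC stood 91.5 times above MEF, which is 4.69 in log2 (SE 0.06, adjusted p = 3.34e-14), in the direction that the filter fixed. D4 and D4_DUX did not differ beyond their spread (0.06, interval -0.06 to 0.19, adjusted p = 0.424). As a share of the summed Dnmt3a and Dnmt3b FPKM, Dnmt3b was 6.40 ± 0.332% in MEF, 4.96 ± 1.29% in D4, 5.83 ± 0.94% in D4_DUX and 82.0 ± 0.159% in iPSC (SD, n = 3 each). The day 4 groups differed by 0.87 percentage points, with an exact two-sided permutation p of 0.5. The similar copy Dnmt3c, a germline enzyme, was at 0.862 FPKM in iPSC and at most 0.0381 elsewhere, so the iPSC level of Dnmt3b far exceeded it.

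Dnmt3l, the cofactor of the de novo enzymes (ENSMUSG00000000730, chromosome 10, 78041947 to 78063622, plus strand), spanned the widest range of the 9. Its FPKM was 0.438, 0.406 and 0.589 in MEF, 0.0520, 0.128 and 0.0471 in D4, 0.132, 0.125 and 0.238 in D4_DUX, and 79.7, 84.1 and 82.2 in iPSC. In MEF this is 28.6 to 49.3 fragments, and in D4 it is 3.49, 9.48 and 3.50. The level of 3 fragments, 0.0358 to 0.0447 FPKM, lay just under the lowest D4 values. All MEF libraries lay above all day 4 libraries. It fell from MEF to D4 by 0.46 (SE 0.06, adjusted p = 4.96e-05), a value that adding 1 FPKM keeps small: with a pseudocount of 0.1 it fell by 1.73. Between D4 and D4_DUX the difference was 0.11 (adjusted p = 0.176), but 0.60 (adjusted p = 0.0411) with a pseudocount of 0.1 and 1.23 (adjusted p = 0.0307) with voom on recovered fragments. iPSC stood 172 times above MEF (log2 fold change 5.81, SE 0.06, adjusted p = 1.33e-14), in the direction that the filter fixed. Its start region overlaps Aire on the other strand, which was at 3.65 FPKM in iPSC and at most 0.139 elsewhere, and no source used here says whether reads were counted by strand.

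Tet1, the TET enzyme most tied to pluripotent cells (ENSMUSG00000047146, chromosome 10, 62804570 to 62908996, minus strand), was under 1 FPKM in every library but those of iPSC. Its FPKM was 0.775, 0.731 and 0.711 in MEF, 0.363, 0.389 and 0.378 in D4, 0.210, 0.196 and 0.219 in D4_DUX, and 33.5, 36.4 and 42.0 in iPSC. No 2 groups overlapped, and the order was D4_DUX, D4, MEF, iPSC. These are 126 to 149 fragments in D4 and 80.7 to 86.2 in D4_DUX. It fell from MEF to D4 by 0.34 (SE 0.07, adjusted p = 0.00113) and was 50.4 times higher in iPSC than in MEF (4.45, SE 0.07, adjusted p = 1.96e-13). The direction of the iPSC difference was fixed by the filter.

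Between D4_DUX and D4, Tet1 was 1.81 times lower in D4_DUX, a log2 difference of -0.19 (SE 0.07, 95% interval -0.34 to -0.04) that missed the threshold with an adjusted p of 0.0522. The value depends on the pseudocount. With 0.1 FPKM added it was -0.63 (adjusted p = 0.00051), with 0.5 it was -0.31 (adjusted p = 0.0091), and after rescaling to TPM it was -0.40 (adjusted p = 0.0037). TPM gives each library the same total, above the FPKM totals of 305025 to 316995, so the added 1 weighs less there too. Voom on recovered fragments gave -0.85 (adjusted p = 0.00235). Over all alternatives the adjusted p ran from 0.00051 to 0.118, with the direction the same in each. Tet1 was lower in 3 of 3 D4_DUX libraries than in any D4 library.

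Tet2, the TET enzyme known from blood and reprogramming (ENSMUSG00000040943, chromosome 3, 133463679 to 133545139, minus strand), was present throughout. Its FPKM was 2.82, 2.76 and 2.65 in MEF, 2.24, 1.98 and 2.38 in D4, 2.53, 2.35 and 2.64 in D4_DUX, and 11.5, 13.4 and 15.1 in iPSC. Every MEF library lay above every day 4 library, and iPSC stood above all, at 4.85 times MEF (1.93, SE 0.08, adjusted p = 7.92e-10). The fall from MEF to D4 was 0.23 (SE 0.08, adjusted p = 0.0331), and the call was lost without MEF replicate 1 (adjusted p = 0.085) or 2 (0.0728), without D4 replicate 1 (0.0596) or 2 (0.12), and with no filter (0.0719). D4 and D4_DUX overlapped and differed by 0.13 (interval -0.05 to 0.32, adjusted p = 0.244).

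Tet3, the TET enzyme of the oocyte and of many somatic cells (ENSMUSG00000034832, chromosome 6, 83362373 to 83459084, minus strand), went the other way. Its FPKM was 4.16, 3.95 and 3.71 in MEF, 3.41, 3.07 and 3.85 in D4, 4.34, 3.98 and 4.21 in D4_DUX, and 2.13, 2.15 and 1.94 in iPSC. The iPSC libraries lay under all 9 others, and MEF was 1.90 times iPSC (log2 fold change -0.68, SE 0.07, adjusted p = 1.25e-06). Every D4_DUX library lay above every D4 library, a log2 difference of 0.22 (SE 0.07, interval 0.08 to 0.37, adjusted p = 0.0219) and the sole member call of that comparison. It was lost without D4 replicate 1 (adjusted p = 0.0584) or 2 (0.0797), without D4_DUX replicate 1 (0.0754) or 3 (0.0595), and with only these 6 libraries in the fit (0.0669). From MEF to D4 the difference was -0.16 (adjusted p = 0.0603). That one passed with median-ratio scaling (0.0168), quantile normalization (0.0204) and voom (0.0198), and without MEF replicate 3 (0.0478) or D4 replicate 3 (0.0111).

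**Figure D2:**
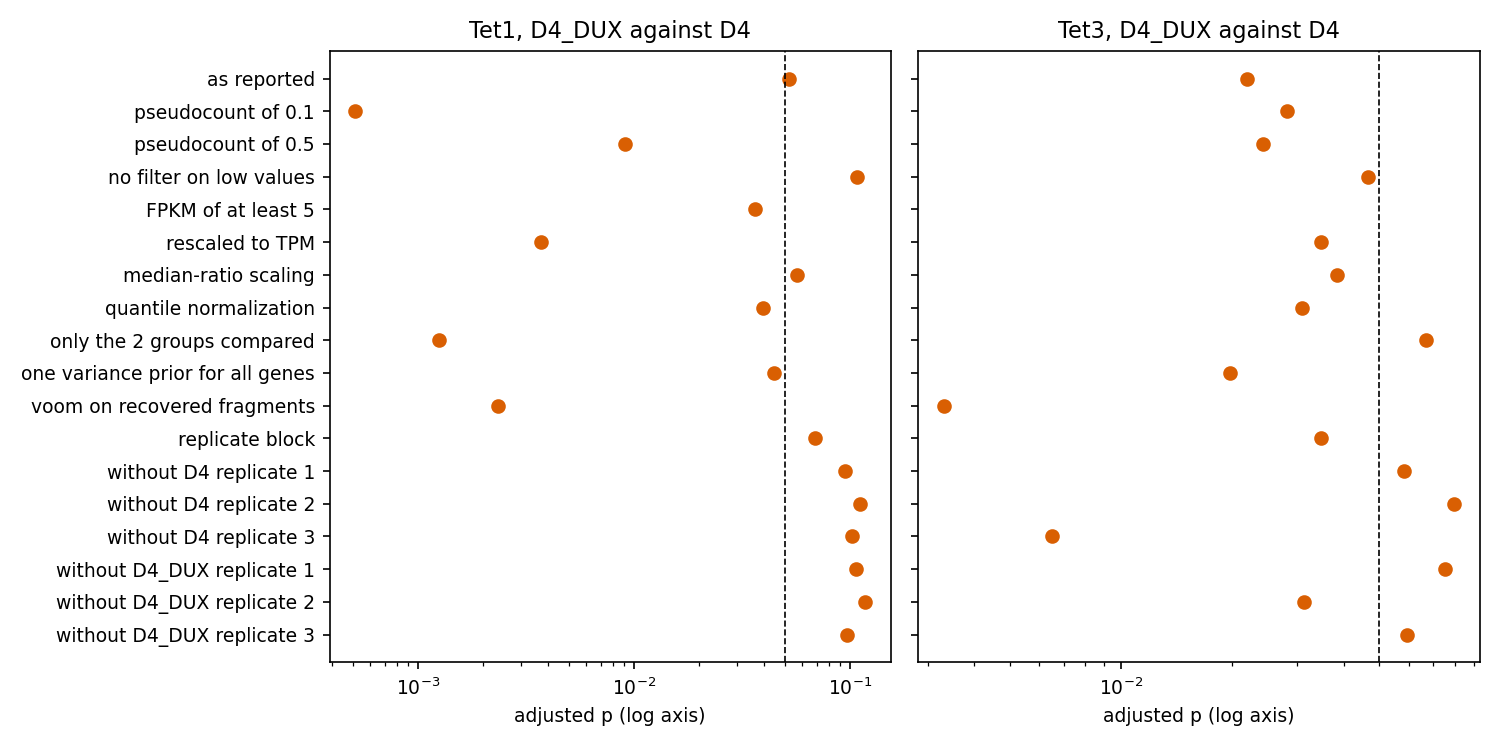
Adjusted p, on a log axis, of Tet1 and Tet3 for D4_DUX against D4 as reported and under each alternative, with a dashed line at 0.05. Tet1 runs from 0.00051 to 0.118 and Tet3 crosses the line in 5 alternatives, 4 of which leave out 1 library.

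The makeup of the TET messages can be summed within a library, since FPKM is per length. Tet1 held 10.003, 9.83 and 10.05% of the summed Tet FPKM in MEF, 6.04, 7.15 and 5.72% in D4, 2.97, 2.99 and 3.10% in D4_DUX, and 71.1, 70.1 and 71.2% in iPSC. The D4_DUX libraries all lay under the D4 libraries, by 3.28 percentage points in the mean, with an exact two-sided permutation p of 0.1, the smallest that 3 against 3 can give. Tet3 held 53.1 ± 0.591%, 57.1 ± 0.951%, 60.6 ± 0.963% and 3.98 ± 0.636% in the 4 groups, and Tet2 37.0 ± 0.577%, 36.6 ± 0.602%, 36.4 ± 0.894% and 25.2 ± 0.766% (SD, n = 3 each). So Tet3 gave the largest share in the first 3 groups and Tet1 in iPSC, while the share of Tet2 stayed between 25.2 and 37.0%. The summed Tet FPKM was 7.42 ± 0.339, 6.02 ± 0.58, 6.89 ± 0.314 and 52.7 ± 5.99.

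**Figure D3:**
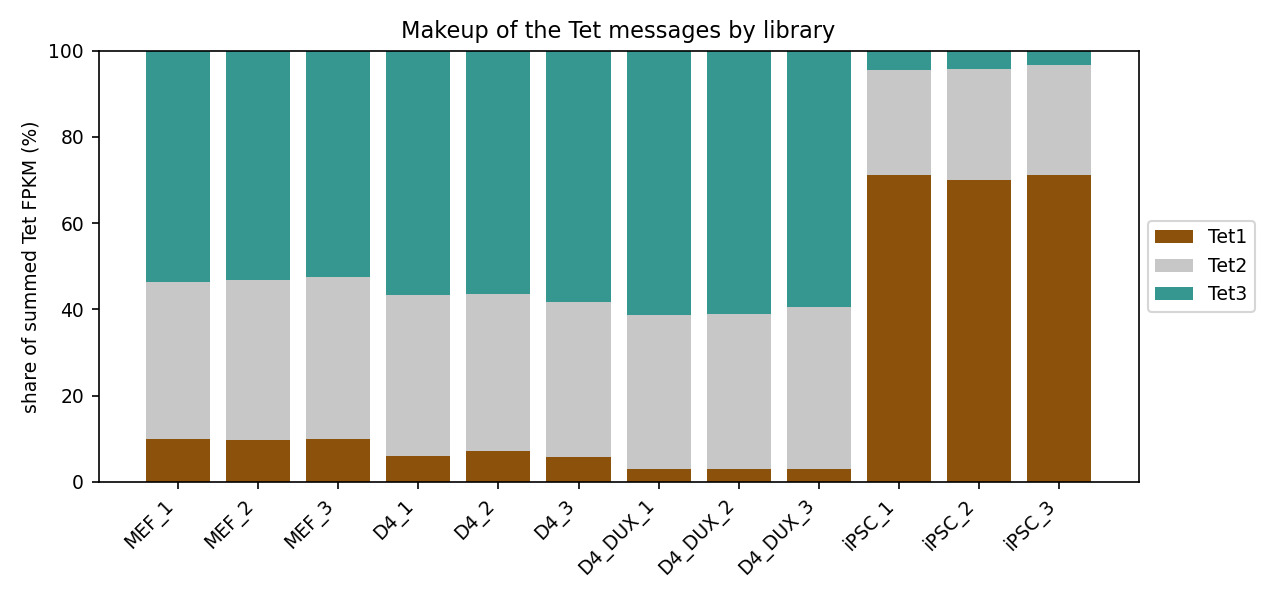
Share of Tet1, Tet2 and Tet3 in their summed FPKM, in percent, with 1 stacked bar per library. Tet1 takes 9.83 to 10.05% in MEF, 5.72 to 7.15% in D4, 2.97 to 3.10% in D4_DUX and 70.1 to 71.2% in iPSC.

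Writers and erasers rose by different amounts. The summed Dnmt1, Dnmt3a and Dnmt3b FPKM was 31.3 ± 0.49 in MEF, 19.9 ± 0.911 in D4, 20.4 ± 0.16 in D4_DUX and 82.2 ± 2.79 in iPSC. Divided by the summed Tet FPKM, it was 4.22 ± 0.128, 3.32 ± 0.194, 2.96 ± 0.115 and 1.57 ± 0.157. The D4_DUX ratios (2.89, 3.09 and 2.89) all lay under the D4 ratios (3.39, 3.46 and 3.10), and on the log2 scale the means differed by -0.17, with an exact two-sided permutation p of 0.1. The nearest libraries, D4 replicate 3 and D4_DUX replicate 2, almost touched. The iPSC ratios were the lowest, with a TET sum led by Tet1.

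Tdg, the glycosylase that removes oxidized methylcytosine (ENSMUSG00000034674, chromosome 10, 82629828 to 82650799, plus strand), had the largest fall of the 9 from MEF to D4 on the log2(FPKM + 1) scale, although Dnmt3l fell by more in FPKM ratio. Its FPKM was 5.45, 5.59 and 5.84 in MEF, 2.33, 2.51 and 2.54 in D4, 2.66, 2.76 and 2.72 in D4_DUX, and 11.8, 11.0 and 11.1 in iPSC. No 2 groups overlapped. The fall from MEF to D4 was 0.94 (SE 0.04, adjusted p = 6.25e-09), and iPSC was 2.00 times MEF (0.89, SE 0.04, adjusted p = 2.65e-09). D4_DUX exceeded D4 by 0.10 (interval 0.01 to 0.20, adjusted p = 0.0927), which missed the threshold. Glt8d2, which overlaps the end of Tdg on the other strand, was at 0.642 FPKM in MEF, 1.86 in D4, 2.06 in D4_DUX and 0.142 in iPSC, higher in the day 4 groups where Tdg was lower and lowest in iPSC where Tdg was highest. The pseudogene Tdg-ps, which could share reads with Tdg, was at 0.224, 0.307, 0.276 and 0.465.

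**Figure D4:**
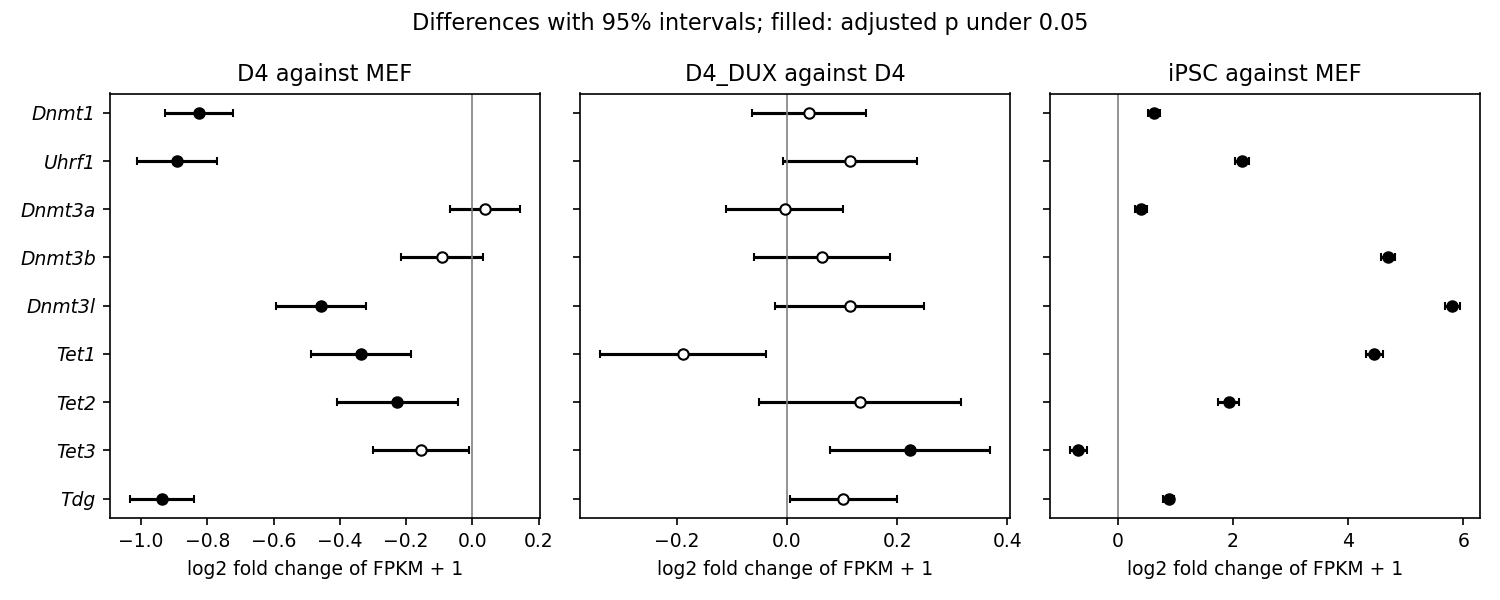
Log2 fold change of FPKM + 1 for the 9 genes in 3 comparisons, with 95% intervals as bars and filled points for adjusted p under 0.05. The horizontal axes differ: all called members lie under 0 for D4 against MEF, Tet3 alone is filled for D4_DUX against D4, and Tet3 alone lies under 0 for iPSC against MEF.

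The order of the groups was D4, D4_DUX, MEF, iPSC for 6 members: Dnmt1, Uhrf1, Dnmt3b, Dnmt3l, Tet2 and Tdg. D4 and D4_DUX, neighbours in that order, differed beyond the threshold for none of the 6, and neither did D4_DUX and MEF for Dnmt3b (adjusted p = 0.697) and Tet2 (0.347). Tet1 had D4_DUX lowest. For Dnmt3a the order was MEF, D4_DUX, D4, iPSC, with iPSC alone apart. For Tet3 the order was iPSC, D4, MEF, D4_DUX, where neither D4 and MEF (0.0603) nor MEF and D4_DUX (0.396, with the sign turned to -0.01 by median-ratio scaling) differed beyond the threshold. Between D4 and D4_DUX the groups did not overlap for 4 of the 9 members (Uhrf1, Tet1, Tet3 and Tdg), against 50.5% of all genes tested, a share of the members near that of all genes. The members' median log2 difference there was 0.10 against 0.02 over all genes. Against MEF, the libraries labelled D4_DUX were lower in Dnmt1 (-0.79), Uhrf1 (-0.78), Tdg (-0.83), Tet1 (-0.53) and Dnmt3l (-0.34), with adjusted p of 0.000403 or less.

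Genes with the most similar profile were found by Pearson r with each member on log2(FPKM + 1) over the 12 libraries, which fall into 4 clusters of 3, so that r mostly follows the group means. Dnmt1 was closest to Polq (0.9967), Smoc1 (0.9967) and Incenp (0.9963), and 51 genes reached an r of 0.99. Uhrf1 was closest to Shmt2 (0.9993), Nup93 (0.9991) and Zcchc8 (0.9985), with 197 genes. Dnmt3b was closest to Fkbp6, Platr10 and Fthl17b (each 0.9997), with 1126 genes. Dnmt3l was closest to Alg13 (0.9994), Fut9 (0.9993) and Rimklb (0.9991), with 1082 genes. For Tet1 these were Tarm1 (0.9993), Mcm7 (0.9992) and Rimklb (0.999), with 975 genes. So the shape of these 3 profiles was a common one. Pearson r compares shape and not level: Mcm7 had a mean of 18.1 FPKM in MEF, 16.3 in D4 and 16.0 in D4_DUX. Tet2 was closest to Rbm26 (0.9994), Cnot1 (0.999) and Nsd1 (0.999), with 699 genes, and Tdg to Hnrnpd (0.9976), Il1rl1 (0.9974) and Syce2 (0.9968), with 49. Few genes followed the other two: Tet3 had 1 gene at 0.99, Tut7 (0.9904), before Dvl3 (0.9895) and Pkd1 (0.9889), and Dnmt3a had 0, with Fam131c (0.9845) and Acvr2b (0.9818) among the closest.

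Partners of the methylation machinery moved most at the iPSC step. Of 20 listed regulators and partners 18 were tested, and 17 were higher and 1, Uhrf2, lower in iPSC than in MEF (median 1.36, beside 0.21 over all genes, of which 82.2% were called). Among the 17, Sall4 and Dppa3 passed the filter only through iPSC, so their direction was fixed in advance. Sall4, a pluripotency factor, was listed at 0 FPKM in all MEF libraries and at 65.2 ± 3.66 (SD, n = 3) in iPSC. Hells, the remodeller that opens chromatin to DNMTs, rose by 3.13, its cofactor gene Cdca7 by 2.88, and Trim28, the corepressor that guards imprints, by 2.21. From MEF to D4, 1 rose (Cdca7, 0.24) and 7 fell (median -0.13, beside 0.03 and 61.8% called over all genes). With median-ratio scaling 11 fell. Hells was among them, from 5.23 ± 0.153 to 3.03 ± 0.189 FPKM (SD, n = 3). Between D4_DUX and D4, 7 were higher and 0 lower (median 0.09, beside 0.02 over all genes), a called share near the 35.4% of all genes. The smallest adjusted p belonged to Ogt, the sugar transferase that binds TETs (0.39, adjusted p = 0.000511), Hells (0.26, adjusted p = 0.00602), the methyltransferase gene Setdb1 (0.24, adjusted p = 0.00908) and Ctcf (0.20, adjusted p = 0.00919). The count was 4 with median-ratio scaling, with quantile normalization, with no filter, and without D4 replicate 1, D4 replicate 3 or D4_DUX replicate 1.

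Readers of CpG were mixed. Of 12 listed 11 were tested. From MEF to D4, 3 rose and 4 fell (median -0.09), near the 61.8% called over all genes. Between D4_DUX and D4 2 were higher and 0 lower, under the 35.4% called over all genes (median 0.04): Mbd3, a subunit of the NuRD complex (0.32, adjusted p = 0.00601), and Kdm2a, a demethylase that binds unmethylated CpG (0.32, adjusted p = 0.000225). Mbd1 (0.11, adjusted p = 0.107) and Cxxc5 (-0.15, adjusted p = 0.0939) came next and missed the threshold. From MEF to iPSC 5 rose and 4 fell, where 82.2% of all genes were called (median 0.07), with Mbd3 at 0.70, Cxxc1 at 0.59, Mbd2 at -0.69 and Zbtb4 at -0.84.

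Base excision and deamination genes, which act after TETs and TDG, had 17 of 18 members tested. In D4 6 were higher and 4 lower than in MEF (median 0.01), near the 61.8% called over all genes. Between D4_DUX and D4 3 were higher and 4 lower, near the 35.4% called over all genes (median 0.01). Gadd45a and Gadd45b, stress genes also studied in demethylation, were the furthest, at -0.82 (adjusted p = 2.08e-06) and -0.81 (adjusted p = 6.46e-06), while Apobec1, a deaminase, was at 0.27 (adjusted p = 0.00561) and the repair scaffold Xrcc1 at 0.21 (adjusted p = 0.00979). The lower count was 2 with no filter and without D4 replicate 2 or D4_DUX replicate 1. From MEF to iPSC 12 rose and 3 fell, where 82.2% of all genes were called (median 0.57). Among the 12, Apobec2 passed the filter only through iPSC, so its direction was fixed in advance. Parp1 (2.34) and Apex1 (2.19), which act in the repair of the base gap, rose, as did Gadd45a (1.56), while Gadd45b fell by 2.22.

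Genes that act on the methyl donor or on 2-oxoglutarate, the cosubstrate of TETs, had 12 of 14 members tested. The list holds genes that use these molecules as well as genes that supply them, so its counts do not describe supply. In D4_DUX 4 were higher and 4 lower than in D4, where 35.4% of all genes were called (median -0.08). Mat2a, which makes S-adenosylmethionine, was higher (0.56, adjusted p = 7.34e-06). Ahcy, which clears its product (-0.40, adjusted p = 2.99e-05), Ahcyl1 (-0.22, adjusted p = 0.000411) and Idh2, a source of 2-oxoglutarate (-0.23, adjusted p = 0.000356), were lower. The higher count was 1 without D4 replicate 1, D4 replicate 3 or any 1 D4_DUX library, with no filter and with quantile normalization, and 2 without D4 replicate 2, with median-ratio scaling and with the replicate block. In D4 4 were higher and 3 lower than in MEF (median 0.06), near the 61.8% called over all genes. From MEF to iPSC 7 rose and 4 fell, where 82.2% of all genes were called (median 0.31), with Mtrr at 1.82, Mat2a at 1.20, Ahcyl1 at -1.14 and Idh1 at -1.15.

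Genes of DNA replication, listed because Dnmt1 and Uhrf1 act behind the fork, mostly changed in the same direction as that pair. All 23 were tested, and from MEF to D4 2 rose (Rrm1 and Ccne1) and 20 fell, where 61.8% of all genes were called, with a median of -0.43 beside -0.83 for Dnmt1 and -0.89 for Uhrf1. Their summed FPKM was 294 to 302 in MEF, 239 to 244 in D4, 240 to 244 in D4_DUX and 824 to 905 in iPSC. As for Dnmt1 and Uhrf1, the day 4 groups lay under MEF and iPSC above it. D4 and D4_DUX overlapped, as they did for Dnmt1 but not for Uhrf1. From MEF to iPSC 20 rose and 1 fell, where 82.2% of all genes were called (median 1.35), and the smallest adjusted p belonged to the helicase subunits Mcm2 (2.58), Mcm5 (2.35), Mcm7 (2.09) and Mcm3 (2.05). Between D4_DUX and D4 4 were higher and 3 lower, no more than the 35.4% called over all genes (median 0.08). Pcna, the clamp that binds DNMT1, was at 0.20 (adjusted p = 0.00767) and Mcm2 at 0.19, while Rrm2 was at -0.29 (adjusted p = 0.000526) and Rrm1 at -0.20 (adjusted p = 0.0105). The higher count was 2 without D4 replicate 1 or D4_DUX replicate 3. The part of replication in the levels of Dnmt1 and Uhrf1 was not tested.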

How the data were processed

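The authors deposited 1 table of FPKM values per gene and library. Per the labels' protocols, polyadenylated RNA was made into stranded libraries and read in pairs. The build was mm10 per the submitters' processing notes. No aligner or annotation, nor whether reads were counted by strand, is given in the sources used here. Positions and lengths came from GENCODE M21 (GRCm38), which held 40225 of the 40384 gene IDs. FPKM times exon length gave the depth: of the low values, 43.8 to 48.4% came out as whole fragments and 71.9 to 77.9% as multiples of 0.5, within 0.01. Fragment counts recovered this way are estimates, and floors of 3 fragments cover counting error only.

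Values were analysed as log2(FPKM + 1) in R 4.3.3 with limma 3.58.1: 4 group means over 12 libraries, a variance prior that follows mean expression, and Benjamini-Hochberg adjustment over all 17114 genes tested. Genes were called at an adjusted p under 0.05. Adding 1 makes the log2 fold changes of low genes smaller than their FPKM ratios. Shares and ratios were compared with exact two-sided permutation tests (smallest p 0.1). The model was tested on simulated data. Those data had independent libraries and fewer changed genes than were called for D4_DUX against D4, so they do not check the calls here. No pair of columns was identical (0 of 66).

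The members and lists were chosen with earlier results of these data known. Named genes are the 9 members, the 3 genes most like each, and up to 4 genes per list with the smallest adjusted p in D4_DUX against D4 and in iPSC against MEF; 1 of them is not reported here. Genes that identify a count of 5 or fewer, overlapping genes and copies were named after their values were seen. Alternatives changed the pseudocount, filter, scaling, samples in the fit, variance prior and count model, used a replicate block, or left out 1 library.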

Additional observations from a re-analysis of the deposited data

How the results depend on the processing

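Of 912 member results under an alternative, 874 kept their direction and side of the threshold, 10 lost the threshold, 15 gained it and 13 changed sign. Every member kept both in all alternatives run for iPSC against MEF, D4 and D4_DUX, although Tet3 was not tested with FPKM of at least 5. The number of members called for D4_DUX against D4, 1 as reported, was 3 with a pseudocount of 0.1, 2 with 0.5, 2 after rescaling to TPM, 2 with quantile normalization, 2 with one variance prior for all genes and 3 with voom on recovered fragments. Leaving out 1 library gave 0 to 1. With FPKM of at least 5, where fewer genes were tested, the genes called were 9183 for iPSC against D4, 9224 for iPSC against D4_DUX and 9188 for iPSC against MEF.

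The changed signs all belong to differences that were not called. For Dnmt3a in D4 against MEF they were -0.02045 with median-ratio scaling, -0.02121 with quantile normalization and -0.002652 without D4 replicate 3, with 0.08882 as the highest when 1 library was left out. For Dnmt3a in D4_DUX against D4 they were 0.004789 as TPM and from -0.05403 to 0.03745 when 1 library was left out (0.03745 without D4 replicate 3, 0.004356 without D4 replicate 1, 0.0003019 without D4_DUX replicate 2, 0.002345 without D4_DUX replicate 3). For D4_DUX against MEF, Dnmt3a was at -0.04811 with median-ratio scaling and -0.04951 with quantile normalization, Dnmt3b at -0.06357 to 0.005721 when 1 library was left out (highest without D4_DUX replicate 2), and Tet3 at -0.01047 with median-ratio scaling. Dnmt1 in D4_DUX against D4 was at -0.001402 with quantile normalization. The cause of these changes was not tested.

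Scaling moved the median log2 fold change of all genes for iPSC against MEF from 0.21 to 0.04 (median-ratio) and -0.04 (quantile), and the share of higher calls from 62.1% to 52.3% and 47.7%. For iPSC against D4 that share went from 58.8% to 52.1% and 47.3%, and for iPSC against D4_DUX from 58.6% to 53.2% and 47.5%. The replicate numbers showed no clear pairing of the libraries: deviations of same-numbered libraries correlated at -0.146 to 0.0699 over the 6 comparisons. For D4_DUX against MEF each D4_DUX library correlated best with the MEF library of its own number (0.0596, 0.0329 and 0.0699). Correlations this small can neither show nor exclude pairing. With the replicate block 1 member was called for D4_DUX against D4, as without it, and 5677 genes in place of 6066. The block changed no member's call. Depth limits Dnmt3l most, at 3.49 to 9.48 fragments in D4.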
